A study of Homo sapiens with 6 samples.

Results

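The vitamin D axis was followed through 8 genes of the 64253 Ensembl identifiers in the deposited count table: the enzyme genes CYP24A1, CYP27B1 and CYP2R1, the receptor genes VDR, RXRA and RXRB, and the uptake receptor genes LRP2 and CUBN. The set was chosen by the fold change of CYP24A1 between these groups, one of the lowest in the table, and the others were added for their place in the same pathway. The differences of the 8 genes between the groups are therefore given as descriptions, and the calls counted for them once below support nothing. RNA came from NCI-H1299, an established human lung cancer line, in 3 libraries of cells overexpressing MTSS1 and 3 libraries of wild type cells. The overexpressing cells carried a plasmid for mCherry-tagged MTSS1, were kept under hygromycin and were sorted by flow cytometry, and the same protocol text names HEK293T cells. The wild type cells carried no plasmid, and a control plasmid was not among the groups, so effects of the tag, the selection or the sorting cannot be told apart from those of MTSS1. Neither the promoter of the plasmid nor whether the line is 1 clone is given in the sources used here. All cells were grown in DMEM with 5% fetal bovine serum, and no vitamin D compound is named in the labels.

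Vitamin D becomes a hormone in steps. CYP2R1 is a major liver enzyme for the first hydroxylation, and CYP27B1, best known from the kidney, makes the active hormone calcitriol. Calcitriol binds the nuclear receptor VDR, which pairs with a retinoid X receptor (RXR) on DNA and switches genes on or off. CYP24A1, a mitochondrial cytochrome P450, breaks down calcitriol and its precursor and is itself among the genes most strongly induced by VDR. In the kidney tubule, megalin (LRP2) and cubilin (CUBN) take up vitamin D with its carrier protein. CYP24A1 is raised in many lung adenocarcinomas.

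The total count per library lay between 13883380 and 25741708 in overexpressing cells and between 19018751 and 29479453 in wild type cells. MTSS1 itself stood at 550, 544 and 568 CPM in overexpressing libraries and 24.2, 18.0 and 24.3 CPM in wild type libraries, as labelled. CPM here are read counts per library of equal size after TMM scaling, summed over the transcripts of a gene. Replicate 1 of each group stood apart from the other 4 libraries on the first principal component (34.8% of the variance). Of 9 lung and epithelial markers, the surfactant genes SFTPB and SFTPA1 were listed at 0 in all libraries and SFTPC had 1 count, while NKX2-1 stood below 3 CPM in every library. The summed level of these 9 genes, most of it from the keratin genes KRT8 and KRT18, ranged from 259 to 470 CPM in overexpressing and from 571 to 853 CPM in wild type libraries. NKX2-1, KRT7 and EPCAM lay the other way, each higher in every overexpressing library than in any wild type library: NKX2-1 stood at 2.35, 2.61 and 2.92 CPM in overexpressing and 1.59, 0.628 and 1.39 CPM in wild type libraries. The groups did not overlap, in either direction, for 25.5% of all genes tested. The part of these markers in the results below was not tested. The 7 kidney markers summed to between 3.24 and 4.57 CPM in overexpressing and between 4.13 and 5.42 CPM in wild type libraries. Of these, LHX1, SLC34A1 and UMOD were listed at 0 throughout. The 6 blood and endothelial markers summed to between 1.32 and 2.77 CPM in overexpressing and between 2.23 and 4.24 CPM in wild type libraries.

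CYP24A1 (ENSG00000019186, chr20:54153449-54173973, GRCh38, minus strand) had the largest difference of the 6 genes that could be fitted. It stood at 0.881, 0.038 and 2.20 CPM in overexpressing libraries, from 12, 1 and 55 counts, against 11.6, 6.58 and 8.93 CPM in wild type libraries, from 218, 199 and 238 counts. The groups did not overlap: the highest overexpressing library lay below the lowest wild type library. Means were 1.04 ± 1.09 CPM in overexpressing and 9.03 ± 2.49 CPM in wild type cells (SD, n = 3 each), with a log2 fold change of -3.09 (SE 0.70) in edgeR's quasi-likelihood fit over all genes. Over pooled counts, 68 in overexpressing and 655 in wild type cells, the level was 8.22-fold lower in overexpressing cells (exact 95% interval of the counting error 6.40 to 10.7). In bulk RNA, fewer cells with the transcript and less transcript per cell cannot be told apart.

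The size of the CYP24A1 difference varied widely among overexpressing libraries. Replicate 2 held 1 count, with an exact 95% Poisson interval of 9.7e-04 to 0.214 CPM. Replicate 1 had an interval of 0.455 to 1.54 CPM and replicate 3 one of 1.66 to 2.87 CPM. These 3 intervals did not overlap. Replicates of a group differed by more than counting error over all genes too, with a chi-square statistic of 14.7 to 28.0 per degree of freedom. The 3 wild type intervals, 10.1 to 13.2, 5.70 to 7.56 and 7.84 to 10.1 CPM, showed a narrower spread in proportion to the level, and replicate 2 was the lowest there too. Library titles carry numbers that fall into 3 neighbouring pairs of 1 overexpressing and 1 wild type library each. Within these pairs CYP24A1 was lower in the overexpressing library by 13.1-fold (exact 95% interval 7.36 to 25.8), 171-fold (30.4 to 6798, resting on the single count) and 4.06-fold (3.02 to 5.55). Without overexpressing replicate 2 the log2 fold change was -2.46, and without overexpressing replicate 3 it was -4.60. The 50 tested genes nearest to CYP24A1 on chromosome 20 had a median log2 fold change of -0.04, and 22 of them were above 0.

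**Figure D1:**
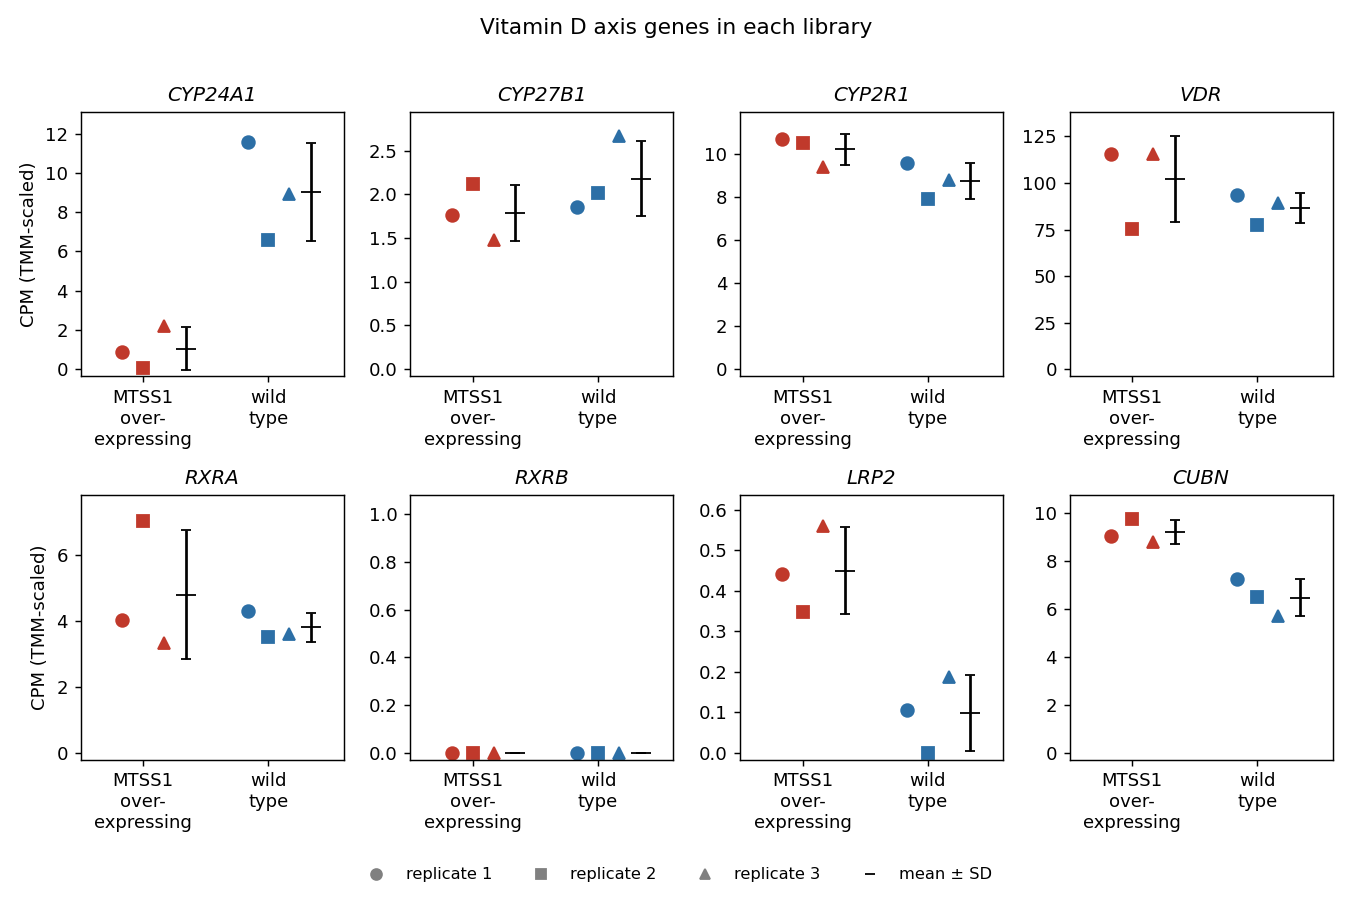
Levels of the 8 genes in each library (vertical axes: TMM-scaled CPM, linear, each panel with its own scale; symbols: replicates 1 to 3; black marks: mean ± SD, n = 3), with overexpressing libraries left of wild type libraries. CYP24A1 lies at 0.881, 0.038 and 2.20 CPM in overexpressing and at 11.6, 6.58 and 8.93 CPM in wild type libraries, whereas VDR overlaps between the groups and RXRB is listed at 0.

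The enzymes that make the hormone overlapped between the groups. CYP27B1 (ENSG00000111012, chr12:57762334-57768986), which makes calcitriol, stood at 1.76, 2.11 and 1.48 CPM in overexpressing and 1.86, 2.02 and 2.67 CPM in wild type libraries. Replicate 3 was the lowest overexpressing and the highest wild type library, and the log2 fold change was -0.29 (SE 0.30). METTL1 overlaps CYP27B1 on the same strand and had 1316 counts in overexpressing and 1336 in wild type cells, so reads near the shared end are uncertain. CYP2R1 (ENSG00000186104, chr11:14877440-14892252) stood at 10.7, 10.5 and 9.41 CPM in overexpressing and 9.60, 7.91 and 8.78 CPM in wild type libraries. Only the lowest overexpressing library lay inside the wild type range, and the log2 fold change was 0.22 (SE 0.15).

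The receptor that carries the hormone signal was present in both groups. VDR (ENSG00000111424, chr12:47841537-47943048) stood at 116, 75.3 and 116 CPM in overexpressing and 93.3, 77.7 and 89.1 CPM in wild type libraries. Overexpressing replicates 1 and 3 lay above every wild type library and replicate 2 lay below them all. Its log2 fold change was 0.24 (SE 0.16), and 0.42 without overexpressing replicate 2. Genes of the opposite strand overlap VDR in the annotation, with 1 and 63 counts in overexpressing and 1 and 82 counts in wild type cells, against 6421 and 6481 counts for VDR. RXRA (ENSG00000186350, chr9:134317098-134440585), a partner of VDR on DNA, stood at 4.04, 7.03 and 3.32 CPM in overexpressing and 4.30, 3.51 and 3.60 CPM in wild type libraries. One overexpressing library was high and another was the lowest of all 6, and the log2 fold change of 0.35 (SE 0.29) was -0.05 without overexpressing replicate 2. RXRB (ENSG00000204231, chr6:33193588-33200688) was listed at 0 counts in all 6 libraries, where 3 counts would be 0.099 to 0.220 CPM. Of the other 36 protein-coding genes within 0.5 Mb of it, 24 (66.7%) were also listed at 0, against 19.3% of the 19621 elsewhere, and its overlapping neighbour SLC39A7 was one of them. The 0 of RXRB is therefore a listed value and does not give its expression. RXRG, the remaining RXR gene, had 0 counts in overexpressing and 1 in wild type cells.

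Both uptake receptors were higher in every overexpressing library than in any wild type library. Over all genes tested, the groups did not overlap, in either direction, for 25.5%. LRP2 lay below the filter on low counts and is not among the genes tested. CUBN (ENSG00000107611, chr10:16823966-17129817) stood at 9.03, 9.72 and 8.77 CPM in overexpressing and 7.21, 6.48 and 5.67 CPM in wild type libraries, a log2 fold change of 0.51 (SE 0.16). Its 50 nearest tested genes lay on the same side: their median log2 fold change was 0.32, and 46 of them were above 0. Relative to that median CUBN differed by 0.19, less than the 0.51 without it. LRP2 (ENSG00000081479, chr2:169127109-169362685) had 6, 9 and 14 counts in overexpressing and 2, 0 and 5 counts in wild type libraries, too few to be fitted. That is 0.441, 0.346 and 0.560 CPM in overexpressing and 0.106, 0 and 0.188 CPM in wild type libraries. Exact 95% Poisson intervals of single libraries overlapped between the groups. Overexpressing replicate 2 had one of 0.158 to 0.657 CPM and wild type replicate 3 one of 0.061 to 0.438 CPM. The pooled level was 4.86-fold higher in overexpressing cells (exact 95% interval of the counting error 2.08 to 13.1). AMN, which anchors cubilin in the membrane, had 9 counts in overexpressing and 10 in wild type cells.

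**Figure D2:**
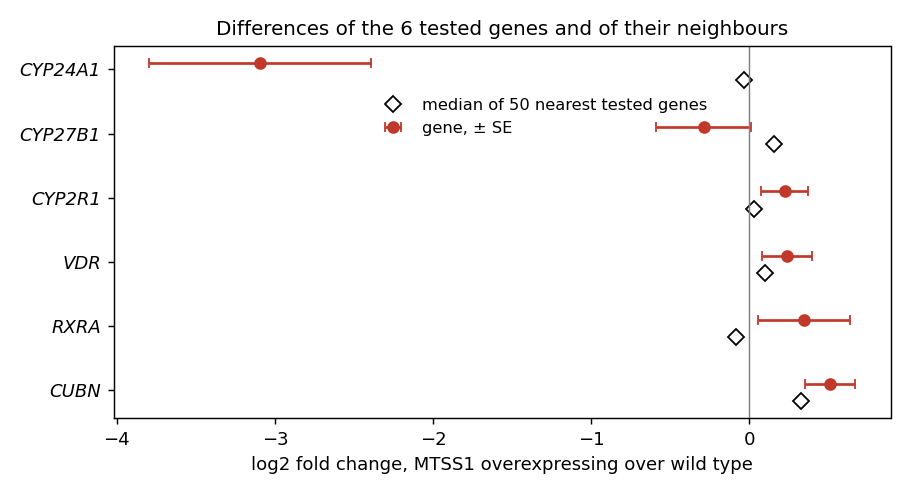
Log2 fold change of the 6 fitted genes, overexpressing over wild type (red, ± SE), with the median over the 50 nearest tested genes on the chromosome (diamonds). CYP24A1 lies at -3.09 with its neighbours at -0.04, and CUBN at 0.51 with its neighbours at 0.32.

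The promoter of CUBN is printed because CUBN lies higher in all 3 overexpressing libraries and is one of the axis genes with a promoter entry. LRP2 met both conditions too, but had too few counts to be fitted, and its window is not printed. It was searched for the 6-letter repeats that receptors of the VDR and RXR class bind, here AGGTCA and the 7 spellings that differ from it by G in the first place, T in the third or G in the fifth, on both strands. The sequence is RefSeq's (GRCh38.p14, chr10:17129762-17130061, minus strand), from 250 bases before the annotated start to 50 bases from it on, with matches in capitals.
CUBN promoter: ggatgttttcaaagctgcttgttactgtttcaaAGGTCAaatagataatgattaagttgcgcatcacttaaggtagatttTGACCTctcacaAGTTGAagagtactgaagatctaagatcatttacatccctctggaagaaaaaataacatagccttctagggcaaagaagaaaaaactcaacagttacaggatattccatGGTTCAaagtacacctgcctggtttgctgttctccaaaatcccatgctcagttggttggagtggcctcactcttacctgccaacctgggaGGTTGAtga
It held 5 such matches, 4 on the gene's strand and 1 on the other, and no matches overlapped. At least 1 match occurred in 62.1% of all 35116 RefSeq promoter windows of 300 bases. The share of windows with 5 matches was not counted. The search took single repeats and did not look for pairs at a set spacing. In the other windows of these genes the count was 0, 1 and 2 for CYP2R1, 1 and 1 for RXRA, 1 and 1 for RXRB, and 0 for LRP2. Promoter entries were found for 5 of the 8 genes, and CYP24A1, CYP27B1 and VDR were not among them.

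Levels of different genes can be set side by side per kilobase of annotated exon (RPKM on the TMM scale). In overexpressing cells the order was VDR at 18.0 ± 4.10, CYP2R1 at 2.26 ± 0.157, CUBN at 0.691 ± 0.037, CYP27B1 at 0.519 ± 0.092, RXRA at 0.433 ± 0.178, CYP24A1 at 0.262 ± 0.274 and LRP2 at 0.028 ± 0.0066 RPKM (SD, n = 3). In wild type cells it was VDR at 15.3 ± 1.43, CYP24A1 at 2.27 ± 0.627, CYP2R1 at 1.94 ± 0.187, CYP27B1 at 0.634 ± 0.124, CUBN at 0.486 ± 0.058, RXRA at 0.343 ± 0.039 and LRP2 at 0.006 ± 0.0058 RPKM. By mean, CYP24A1 was sixth among the genes in overexpressing cells and second in wild type cells. Neighbours in this order whose means ± SD overlapped were CYP27B1, RXRA, CYP24A1 and LRP2 in overexpressing cells, and CYP24A1 with CYP2R1 and CYP27B1 with CUBN in wild type cells.

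In that fit, 1 of the 6 tested axis genes, CYP24A1, had a Benjamini-Hochberg adjusted p under 0.05, against 4.28% of the 16091 genes tested. With neighbouring title numbers as a block, 2 of 6 did, CYP24A1 and CUBN, against 22.7% of all genes. The CPM of the groups did not overlap for 2 of the 6, against 25.5% of all tested genes. Nothing is read from these counts, because the comparison itself chose CYP24A1. LRP2 and RXRB did not reach the filter on low counts. CYP24A1 was no longer called in 4 of 6 fits without 1 library (without overexpressing replicate 1 or any 1 wild type replicate) or with DESeq2.

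Beyond the 8 genes, 97 genes of 7 lists were read: other enzymes, electron donors, uptake partners, VDR coregulators, partner receptors of RXR, regulators of the axis and VDR target genes. Of the 64 with enough counts to be tested, 0 were higher and 3 were lower in overexpressing cells at an adjusted p under 0.05 from edgeR. The called share of 4.69% compares with 4.28% over all genes tested, of which 1.82% were higher and 2.45% lower. At an unadjusted p under 0.05 there were 7 higher and 10 lower, 26.6% against 19.8% of all genes tested. DESeq2 called 1 higher and 5 lower, 9.52% of the 63 to which it gave an adjusted p, against 8.49% of all such genes. The median log2 fold change was -0.02, against 0.0046 over all genes tested. With the block 10 were higher and 11 lower, 32.8% against 22.7% of all genes.

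RARB, the retinoic acid receptor beta and one of the receptors that pair with RXR, had the lowest log2 fold change of the 3 genes that passed. It stood at 0.514, 0.922 and 0.841 CPM in overexpressing libraries, from 7, 24 and 21 counts, against 2.49, 2.55 and 2.1 CPM in wild type libraries, from 47, 77 and 56 counts. The groups did not overlap and the log2 fold change was -1.61 (SE 0.33, adjusted p from edgeR = 0.0309). The median of its 50 neighbours was 0.11. It was the only 1 of 13 tested genes on the list of RXR partner receptors to pass, with a list median of -0.03. That is a called share of 7.69%, against 4.28% of all genes tested. RARA stood at -0.05 and RARG at -0.03 on the log2 fold change scale. With the block 5 of the 13 passed, 38.5% against 22.7% of all genes: THRA, THRB and NR4A1 higher, RARB and NR1H2 lower. Of these THRB, a thyroid hormone receptor, had a log2 fold change of 0.74 (adjusted p from edgeR = 0.131, and 0.0383 with the block). RARB did not pass in any of the 6 fits without 1 library (highest adjusted p from edgeR = 0.0953), and its log2 fold change lay between -1.76 and -1.42 in them.

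RARB is known as a gene induced by retinoic acid through a direct repeat in 1 of its promoters, to which a retinoic acid receptor and RXR bind. The window of that start is shown as an example of a site for an RXR pair beside a gene that fell (RefSeq, GRCh38.p14, chr3:25428013-25428312, plus strand), with the fixed letters of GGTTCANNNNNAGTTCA in capitals.
RARB promoter: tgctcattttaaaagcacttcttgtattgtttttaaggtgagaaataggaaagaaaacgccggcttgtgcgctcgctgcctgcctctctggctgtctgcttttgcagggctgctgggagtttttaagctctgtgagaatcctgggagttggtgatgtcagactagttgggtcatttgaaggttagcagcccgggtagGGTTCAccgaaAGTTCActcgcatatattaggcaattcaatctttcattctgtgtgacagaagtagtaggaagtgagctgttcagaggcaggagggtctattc
The element began 53 bases before the annotated start. The same letters, on either strand, occurred in 6 of the 35116 promoter windows, and in 1 of the 4 listed for RARB. They are the spelling of this known element of RARB, so the match was fixed in advance and supports nothing. The part of the element in the lower level of RARB was not tested. Counts per gene do not say which start was used.

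Of the coregulators, all 17 could be tested: 0 were higher, 1 was lower and 16 did not pass, with a median log2 fold change of 0.01. The called share was 5.88%, against 4.28% of all genes tested. NCOA3, a coactivator of nuclear receptors, fell to 75.4, 73.0 and 75.3 CPM in overexpressing libraries, against 87.7, 97.4 and 96.4 CPM in wild type libraries (log2 fold change -0.33, SE 0.08, adjusted p from edgeR = 0.0473). The groups did not overlap, and the call was lost in all 6 fits without 1 library (highest adjusted p from edgeR = 0.167). With the block 4 of the 17 passed, 23.5% against 22.7% of all genes: NCOA3 and 3 others, which are named after their values were seen. BAZ1B, the gene of a subunit of chromatin remodelling complexes, had a log2 fold change of 0.26 (adjusted p from edgeR = 0.160, and 0.0016 with the block). The corepressor gene NCOR1 had a log2 fold change of 0.22 (adjusted p from edgeR = 0.160, and 0.0050 with the block). KAT2B, an acetyltransferase gene, had one of -0.33 (adjusted p from edgeR = 0.102, and 0.0048 with the block).

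Of the 28 listed VDR target genes, 15 could be tested: 0 were higher, 1 was lower and 14 did not pass, with a median log2 fold change of -0.14. CDKN1A, the gene of a cell cycle inhibitor, stood at 29.7, 26.6 and 26.9 CPM in overexpressing and 53.6, 48.3 and 45.6 CPM in wild type libraries (log2 fold change -0.83, SE 0.10, adjusted p from edgeR = 0.00436). It passed in all 6 fits without 1 library. IGFBP3, which binds insulin-like growth factors, is named after its values were seen. It stood at 7.05, 2.15 and 7.52 CPM in overexpressing and 14.4, 9.26 and 14.8 CPM in wild type libraries, with a log2 fold change of -1.22 (adjusted p from edgeR = 0.122, and 9.3e-04 with the block). Its lowest library in each group was replicate 2, as for CYP24A1. The classic intestinal targets TRPV6 and S100G and the monocyte target CAMP were listed at 0 in all libraries.

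**Figure D3:**
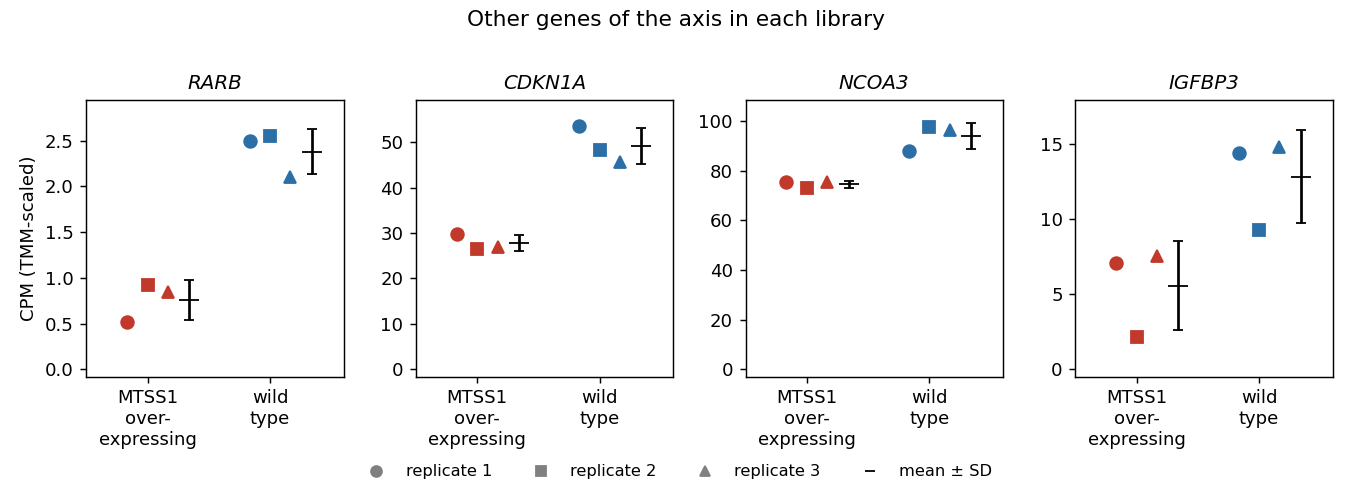
Levels of RARB, CDKN1A, NCOA3 and IGFBP3 in each library (TMM-scaled CPM, linear; symbols: replicates 1 to 3; black marks: mean ± SD, n = 3), with overexpressing libraries left of wild type libraries. RARB, CDKN1A and NCOA3 do not overlap between the groups, and IGFBP3 has its lowest values in replicate 2 of each group, 2.15 CPM in overexpressing and 9.26 CPM in wild type cells.

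No gene of the other 4 lists passed edgeR's test (0 of 4 enzymes, 0 of 5 electron donors, 0 of 4 uptake partners and 0 of 7 regulators). At an unadjusted p under 0.05 they held 3 higher and 4 lower of 20 genes, 35.0% against 19.8% of all genes tested. DESeq2 called 1 higher and 1 lower of 19, 10.5% against 8.49%. With the block 3 of 4 enzymes (75.0%), 2 of 5 electron donors (40.0%), 2 of 4 uptake partners (50.0%) and 2 of 7 regulators (28.6%) passed. The share over all genes with the block was 22.7%. CYP27C1, a relative of CYP27B1 that acts on retinoids, stood at 9.91, 5.73 and 9.49 CPM in overexpressing and 14.6, 12.8 and 12.7 CPM in wild type libraries (log2 fold change -0.68, adjusted p from edgeR = 0.101, and 0.0068 with the block). CYP2J2, an epoxygenase that can also hydroxylate vitamin D, had a log2 fold change of 0.75 (adjusted p from edgeR = 0.237, and 0.0145 with the block). The electron carrier gene FDX1, which serves mitochondrial P450 enzymes such as CYP24A1, had one of -0.24 (adjusted p from edgeR = 0.326, and 0.114 with the block). CYB5A, cytochrome b5, had one of 0.43 (adjusted p from edgeR = 0.0933, and 0.0072 with the block). LRPAP1, the chaperone of megalin, had one of -0.29 (adjusted p from edgeR = 0.128, and 0.0049 with the block), and PDIA3, a disulfide isomerase also described as a membrane receptor for calcitriol, one of -0.22 (adjusted p from edgeR = 0.222, and 0.0081 with the block). Among the regulators FGFR1, a receptor through which FGF23 acts with klotho, had a log2 fold change of 0.31 (adjusted p from edgeR = 0.120, and 0.0077 with the block) and the kinase gene GSK3B one of -0.22 (adjusted p from edgeR = 0.160, and 0.0083 with the block). FGF23 and PTH, the hormones that set CYP24A1 and CYP27B1 in the kidney, were listed at 0, and GC, the gene of the vitamin D carrier, was too.

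**Figure D4:**
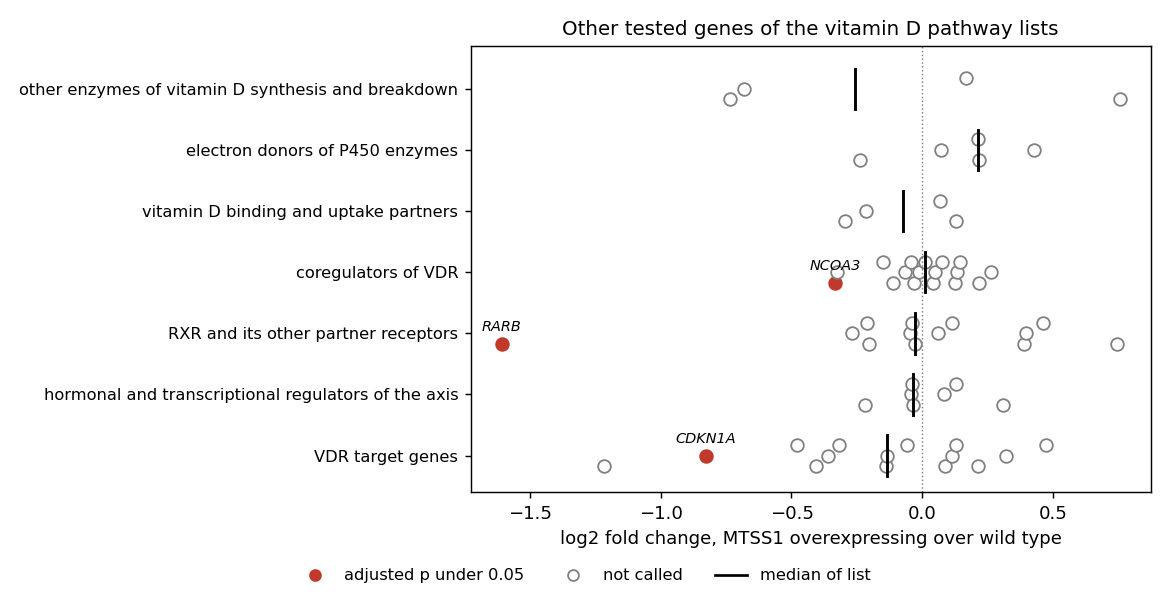
Log2 fold change, overexpressing over wild type, of each tested gene of the 7 lists (filled: adjusted p under 0.05; open: not called; bars: list medians). RARB at -1.61, CDKN1A at -0.83 and NCOA3 at -0.33 are the 3 filled points, all below 0.

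Genes were ranked by how closely they followed CYP24A1 over the 6 libraries, with Pearson's r of log2 CPM among 13816 tested genes with a symbol and a mean of at least 1 CPM. The first 5 were MTX3 (r = 0.998), CNOT11 (0.997), MTMR1 (0.994), AKAP11 (0.991) and EPHA7 (0.991). With 6 libraries and so many genes these values describe the ranking only. The log2 values were taken after a prior count of about 2 was added, and CYP24A1 had 1 count in overexpressing replicate 2. Each of these 5 genes, like CYP24A1 and IGFBP3, had its lowest CPM of the 6 libraries there. How far the ranking rests on that library was not tested. The 5 genes differed far less than CYP24A1: their log2 fold changes were -0.27, -0.23, -0.38, -0.20 and -0.53. MTX3, first in the ranking, stood at 56.2, 47.2 and 59.5 CPM in overexpressing and 67.2, 64.5 and 64.9 CPM in wild type libraries. An r over both groups includes the group difference by which CYP24A1 was chosen, so genes lower in overexpressing cells tend to score high. IGFBP3 had an r of 0.970 with CYP24A1, CDKN1A one of 0.845, NCOA3 0.816 and RARB 0.732. Among the axis genes r was 0.140 for CYP27B1, 0.113 for VDR, -0.701 for CYP2R1, -0.773 for RXRA and -0.836 for CUBN.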

How the data were processed

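Poly(A) RNA of 3 MTSS1-overexpressing and 3 wild type NCI-H1299 libraries was sequenced as single reads of 50 cycles with a directional kit, per the labels' protocols. The authors deposited unnormalized read counts for each Ensembl identifier, made with bcl2fastq, HISAT2 2.1.0 and HTSeq on GRCh38, per the submitters' processing notes. The annotation release and strand setting were, however, not given in the sources used here. Symbols came from a name table (40995 identifiers) or from GENCODE release 29 (15596 more), which also gave coordinates and exon lengths.

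Counts were fitted with edgeR 4.0.16 in R 4.3.3: TMM scaling, the filterByExpr filter, quasi-likelihood test, two-sided, Benjamini-Hochberg adjustment over 16091 tested genes, threshold 0.05. All adjusted p-values are from this test unless DESeq2 1.42.0 is named. Tested on simulated data for this comparison (16091 genes), the fit called 99 of 99 genes changed 4-fold, 95 of 101 changed 2-fold and 3 unchanged genes. The simulation gave every gene the same dispersion between replicates and changed only genes above a minimum level. It added no effect shared by a pair of libraries. It therefore does not show recovery for genes as variable as CYP24A1 or as low as RARB. Counting intervals are exact (Poisson, or Clopper-Pearson for ratios) at 95% and, like the floor of 3 counts, cover counting error only.

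The labels do not name separate cultures for the replicates, and p-values measure the spread between these libraries, which may be technical. Replicates were not copies of each other (chi-square statistic over its degrees of freedom 14.7 to 28.0 within groups). Neighbouring title numbers served as a block in an alternative fit, although no label says that they share a day. Deviations from group means correlated at 0.66, 0.34 and 0.38 within the 3 pairs and between -0.40 and 0.10 across pairs. Deviations within a group sum to 0, which favours such a contrast.

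The 8 genes, the lists and the naming rule were chosen with earlier results of these data known. The rule names the 8 genes, the genes of each list that passed (otherwise the 2 with the smallest p) and the 5 genes most like CYP24A1; any other gene was named once its values were known. Alternatives were other size factors, no filter, DESeq2, the block, leaving out libraries, and the neighbours' median.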

Additional observations from a re-analysis of the deposited data

How the results depend on the processing

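The log2 fold change of CYP24A1 kept its sign and stayed within the spread between replicates under every alternative run. That spread was wide, a within-group SD of 1.55 on the log2 scale, so it is a lenient measure. The call was lost in 4 of 6 fits without 1 library and with DESeq2. It was also lost without both replicates 1 (adjusted p from edgeR = 0.188). The log2 fold change was -3.09 with DESeq2's size factors, -3.09 without the filter, -3.23 with the replicate block and -3.11 with DESeq2. It was -3.06 against its 50 neighbours, between -4.60 and -2.46 without 1 library, and -2.80 without both replicates 1, an alternative chosen after seeing the data.

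The number of called genes over the whole table, 688, was 684 with DESeq2's size factors, 1489 without the filter, 1260 with DESeq2, 3651 with the replicate block, from 145 to 346 without 1 library, and 132 without both replicates 1. The 3 called pathway genes were 3 with DESeq2's size factors, 7 without the filter, 6 with DESeq2, 21 with the replicate block and 1 (CDKN1A) without any 1 library or without both replicates 1. The causes were not tested. For the 5 other fitted genes of the axis, 59 of 60 values lay within the spread between replicates of the value with all libraries, and CUBN moved to 0.19 against its neighbours. Among the 59, RXRA changed sign, to -0.05, without overexpressing replicate 2, and CUBN was called with the replicate block. Of 121 values of the 11 named pathway genes, 96 stayed on their side of the threshold, 14 lost a call (NCOA3 and RARB, 7 each) and 11 gained one, and the sign changed in 0. Depth limits LRP2, with 7 counts in wild type cells, and CYP24A1 in overexpressing cells.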

Other observations

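Differences between libraries that do not follow the groups were noticed after the values were seen. Of the 15 tested VDR target genes, 6 had their lowest CPM in replicate 2 of both groups: SPP1, GADD45A, IGFBP3, HILPDA, G0S2 and PTHLH. Over all 16091 tested genes 18.9% did. Another 3 (SERPINB1, CEBPB and NINJ1) had their highest CPM in replicate 2 of both groups, against 18.7% of all tested genes. Of the 6 tested axis genes, CYP24A1 and VDR had their lowest there, and 0 their highest. SPP1, the gene of osteopontin, stood at 4.99, 1.35 and 4.12 CPM in overexpressing and 4.93, 3.47 and 5.93 CPM in wild type libraries. PTHLH, the gene of a hormone related to parathyroid hormone, stood at 5.21, 3.11 and 5.72 CPM in overexpressing and 5.94, 3.87 and 7.66 CPM in wild type libraries. G0S2, an inhibitor of fat breakdown, stood at 224, 147 and 193 CPM in overexpressing and 305, 163 and 279 CPM in wild type libraries. CEBPB, 1 of the 3 that lay the other way, stood at 5.21, 15.3 and 6.64 CPM in overexpressing and 5.94, 11.2 and 7.88 CPM in wild type libraries. The genes share the same 6 libraries and are not independent, and no test was made.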
